A study of Mus musculus with 9 samples.

Results

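The genes of respiratory complex I were followed through 3 groups of mouse kidneys. Complex I genes were taken as the protein-coding genes whose GENCODE M21 symbol starts with Nduf and a letter a, b, c, s or v, which gave 46 of the 29678 genes in the count tables. The 45 described here comprised 6 core subunits, 29 accessory subunits, 8 assembly factors (the Ndufaf genes) and a pair, Ndufa4 and Ndufa4l2, that was kept apart. All 45 passed the filter on low counts, and 17967 genes were tested in all. Another 4 rows carried a similar name but were pseudogenes or a non-coding gene, and were not members.

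The kidneys came 24 h after reperfusion, and 3 libraries carried each label. BHBNa_bIRI kidneys had received the sodium salt of beta-hydroxybutyrate (BHB), a ketone body that mitochondria oxidise, before bilateral ischemia-reperfusion injury (bIRI), in which blood flow to both kidneys is stopped and let back. The bIRI kidneys had the injury alone, and Sham kidneys the surgery without ischemia. Dose, route and timing of BHB, length of ischemia, vehicle, strain, sex, age and the number of animals are not given in the labels, so p-values measure only the spread between libraries. All 3 groups are whole kidney, where fewer cells of a type and less RNA per cell cannot be told apart.

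The table of bIRI replicate 2 equalled the rounded-down mean of bIRI replicates 1 and 3 in 100% of genes and was left out, so bIRI had 2 libraries. Total counts ran from 33477985 (bIRI replicate 3) to 45909063 (Sham replicate 2), and the members from 109 counts for Ndufa4l2 to 24059 for Ndufa4 in a library. The bIRI libraries stood apart from each other: bIRI replicate 3 was below bIRI replicate 1 in 29 of 45 members, with a median difference of -0.33 (replicate 3 minus replicate 1, log2 CPM). Mitochondrially encoded genes took 24.0% to 30.3% of counts in BHBNa_bIRI, 15.9% in both bIRI libraries and 11.2% to 13.3% in Sham. Among kidney markers, the summed level of 12 proximal tubule genes was 23472 to 37106 CPM (counts scaled to the size of the library) in BHBNa_bIRI, 10678 and 25789 CPM in bIRI and 40684 to 60359 CPM in Sham. Most of that sum came from Kap. The 11 others summed to 2971 to 3159 CPM in BHBNa_bIRI, 2459 and 2462 CPM in bIRI and 16237 to 17998 CPM in Sham. Of the 12 genes, 11 fell in bIRI against Sham, where 16.2% of all genes tested were lower. The median log2 fold change of the 12 was -2.85 there and 0.40 in BHBNa_bIRI against bIRI, and none was at 0 in every library. The 6 injured tubule genes summed to 15395 to 17017 CPM in BHBNa_bIRI, 16577 and 26470 CPM in bIRI and 579 to 705 CPM in Sham. Spp1 made up most of this sum. In BHBNa_bIRI against bIRI, 0 of the 6 were called, 2 were above 0 and the median log2 fold change was -0.05. The 5 thick ascending limb genes summed to 316 to 907 CPM in BHBNa_bIRI, 1544 and 4406 CPM in bIRI and 2177 to 3722 CPM in Sham. Of these, 3 fell in BHBNa_bIRI against bIRI, with a median log2 fold change of -1.98, where 8.65% of all genes tested were lower. In BHBNa_bIRI against Sham 4 fell, where 22.2% of all genes tested were lower. The part of these shifts in the results on complex I was not tested.

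Complex I takes electrons from NADH, passes them along a chain of iron-sulfur clusters to ubiquinone and pumps protons across the inner mitochondrial membrane. A matrix arm holds the NADH-oxidising N module and the quinone-reducing Q module, and a membrane arm holds the proton pumps. The core subunits, shared with bacteria, do the chemistry. Part of them is encoded by mitochondrial DNA, the rest in the nucleus, while the accessory subunits surround and stabilise the core and the assembly factors help to build it. Proximal tubule cells of the kidney reabsorb solutes with ATP made mostly by respiration, and in reperfused tissue complex I is a known source of reactive oxygen.

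Promoters of 5 members are printed because these genes differ in how they responded. Ndufa11 had the largest rise in BHBNa_bIRI against bIRI, Ndufb7 the largest rise in BHBNa_bIRI against Sham, and Ndufs8 was a core subunit that rose against bIRI. Ndufv1 had the largest fall in bIRI against Sham, and Ndufb4 had the most bases in motif matches among these 5. Sequences are from RefSeq (GRCm38.p6), 5′ to 3′ on the gene's strand, 250 bases before to 50 after the start, at chr17:56717512-56717811 (+), chr16:37654319-37654618 (-), chr8:83566508-83566807 (+), chr19:3912725-3913024 (-) and chr19:4012706-4013005 (-). Capitals mark motif matches on either strand.
Ndufa11: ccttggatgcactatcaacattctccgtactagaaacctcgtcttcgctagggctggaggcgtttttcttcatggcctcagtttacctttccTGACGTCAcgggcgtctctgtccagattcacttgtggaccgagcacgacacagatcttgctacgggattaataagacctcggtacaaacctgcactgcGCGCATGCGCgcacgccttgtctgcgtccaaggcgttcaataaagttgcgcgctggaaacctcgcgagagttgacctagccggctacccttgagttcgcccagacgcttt
Ndufb4: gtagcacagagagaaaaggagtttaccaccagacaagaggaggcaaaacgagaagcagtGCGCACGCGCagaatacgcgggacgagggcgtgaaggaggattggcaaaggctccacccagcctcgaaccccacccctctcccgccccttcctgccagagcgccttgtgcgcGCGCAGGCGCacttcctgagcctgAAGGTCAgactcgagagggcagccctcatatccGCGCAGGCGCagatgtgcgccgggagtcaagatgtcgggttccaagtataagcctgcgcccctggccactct
Ndufb7: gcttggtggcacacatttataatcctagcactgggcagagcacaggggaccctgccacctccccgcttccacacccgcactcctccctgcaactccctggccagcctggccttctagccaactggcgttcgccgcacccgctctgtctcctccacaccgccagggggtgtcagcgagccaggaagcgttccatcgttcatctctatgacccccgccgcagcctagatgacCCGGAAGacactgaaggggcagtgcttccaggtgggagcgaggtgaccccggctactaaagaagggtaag
Ndufs8: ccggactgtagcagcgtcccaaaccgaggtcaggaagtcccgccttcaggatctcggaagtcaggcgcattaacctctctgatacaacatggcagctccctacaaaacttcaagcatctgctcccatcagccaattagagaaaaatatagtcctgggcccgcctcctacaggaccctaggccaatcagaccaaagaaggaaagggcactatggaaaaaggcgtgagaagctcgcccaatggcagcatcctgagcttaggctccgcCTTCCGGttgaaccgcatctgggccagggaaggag
Ndufv1: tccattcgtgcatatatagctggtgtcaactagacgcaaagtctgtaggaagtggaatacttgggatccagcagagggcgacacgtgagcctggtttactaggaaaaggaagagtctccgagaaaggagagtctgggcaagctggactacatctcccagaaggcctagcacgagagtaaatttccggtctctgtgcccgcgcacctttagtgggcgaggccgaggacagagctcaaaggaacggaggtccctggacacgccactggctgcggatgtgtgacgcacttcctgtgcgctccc

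In these windows Ndufa11 held a match to the cyclic AMP response element and an NRF-1 match, and Ndufb4 held several NRF-1 matches and a match for estrogen-related receptors (ERR). Ndufb7 and Ndufs8 held an ETS match each, and Ndufv1 held no match. NRF-1, nuclear respiratory factor, is known as an activator of respiratory chain genes. Its motif, GCGCA and GCGC with any base between them, was in 9 of 40 members with a promoter entry (22.5%), in 5.19% of 27025 genes with an entry and in 9.74% of 12454 tested genes with an entry. The YY1 motif AAGATGGCG was in 15% of members and 3.01% of tested genes. The cyclic AMP response element TGACGTCA was in 7.5% of members and 3.24% of tested genes, and the ERR motif AAGGTCA in 7.5% and 4.3%. The ETS motif CCGGAAG was in 15% of members and 17.3% of tested genes. Both strands were searched and the motifs can overlap. A match describes these letters only.

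The 6 nuclear core subunits described here all fell in the injured kidney, in bIRI against Sham. Their median log2 fold change was -1.33, against 0.08 for all genes tested. By edgeR's quasi-likelihood test at an adjusted p under 0.05, 16.2% of all genes tested were lower in bIRI and 18.9% higher. In the N module, Ndufv1, which binds the flavin that takes electrons from NADH (ENSMUSG00000037916, chromosome 19, 4007384 to 4012806), had 193 and 126 CPM in bIRI, against 424, 473 and 475 CPM in Sham. The bIRI libraries lay well below every Sham library, a fall of 1.52 on the log2 scale (SE 0.25, edgeR adjusted p 0.00173). With BHB, Ndufv1 had 204, 196 and 258 CPM, above both bIRI libraries and below every Sham library. Its log2 fold change was 0.46 (SE 0.24, adjusted p 0.199) against bIRI and -1.06 (SE 0.21, adjusted p 0.0035) against Sham.

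Ndufs1, the largest subunit, which carries iron-sulfur clusters of the N module (ENSMUSG00000025968, chromosome 1, 63143596 to 63176833), had 73.2, 66.9 and 55.8 CPM in BHBNa_bIRI, 83.1 and 103 CPM in bIRI, and 287, 261 and 224 CPM in Sham. The 3 groups did not overlap, and BHBNa_bIRI was the lowest. Ndufs1 fell by 1.98 on the log2 scale (SE 0.19, edgeR adjusted p 6.69e-05) in BHBNa_bIRI against Sham, and by 1.46 (SE 0.21, adjusted p 0.000957) in bIRI against Sham. Against bIRI its log2 fold change with BHB was -0.51 (SE 0.20, adjusted p 0.103), below 0 where the other 5 core subunits described were above 0. Ndufs1 has the longest transcript of the 6, 2661 bases, but the lowest median length of coding transcripts, 651 bases. With length and GC trends taken out, its log2 fold change against bIRI was -0.29 (SE 0.17, edgeR adjusted p 0.296). Ndufv2, an iron-sulfur partner of Ndufv1, had 278, 218 and 281 CPM in BHBNa_bIRI, 191 and 157 CPM in bIRI, and 276, 301 and 365 CPM in Sham. It fell by 0.85 in bIRI against Sham (SE 0.22, adjusted p 0.0152) and was not called with BHB.

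In the Q module, Ndufs3, a core subunit of the matrix arm, had 210.3, 153 and 228 CPM in BHBNa_bIRI, 136 and 75 CPM in bIRI, and 219, 246 and 289 CPM in Sham. It fell by 1.25 in bIRI against Sham (SE 0.29, adjusted p 0.0102), and BHBNa_bIRI overlapped with Sham.

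Ndufs7 and Ndufs8, which hold the last iron-sulfur clusters before ubiquinone, rose in BHBNa_bIRI against bIRI. Ndufs7 (ENSMUSG00000020153, chromosome 10, 80249121 to 80256794) had 188, 155 and 254 CPM in BHBNa_bIRI, 97 and 50.4 CPM in bIRI, and 136, 148 and 186 CPM in Sham. Ndufs8 (ENSMUSG00000059734, chromosome 19, 3908863 to 3912774) had 247, 173 and 287 CPM in BHBNa_bIRI, 111 and 67.8 CPM in bIRI, and 203, 216 and 294 CPM in Sham. For both genes BHBNa_bIRI overlapped with Sham and bIRI lay below both. Against bIRI the log2 fold changes with BHB were 1.43 for Ndufs7 (SE 0.32, edgeR adjusted p 0.0308) and 1.40 for Ndufs8 (SE 0.31, adjusted p 0.0303). Over all genes tested, 4.88% were higher in this comparison and 8.65% lower. Against Sham the values were 0.34 (SE 0.28, adjusted p 0.336) and -0.01 (SE 0.26, adjusted p 0.971).

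**Figure D1:**
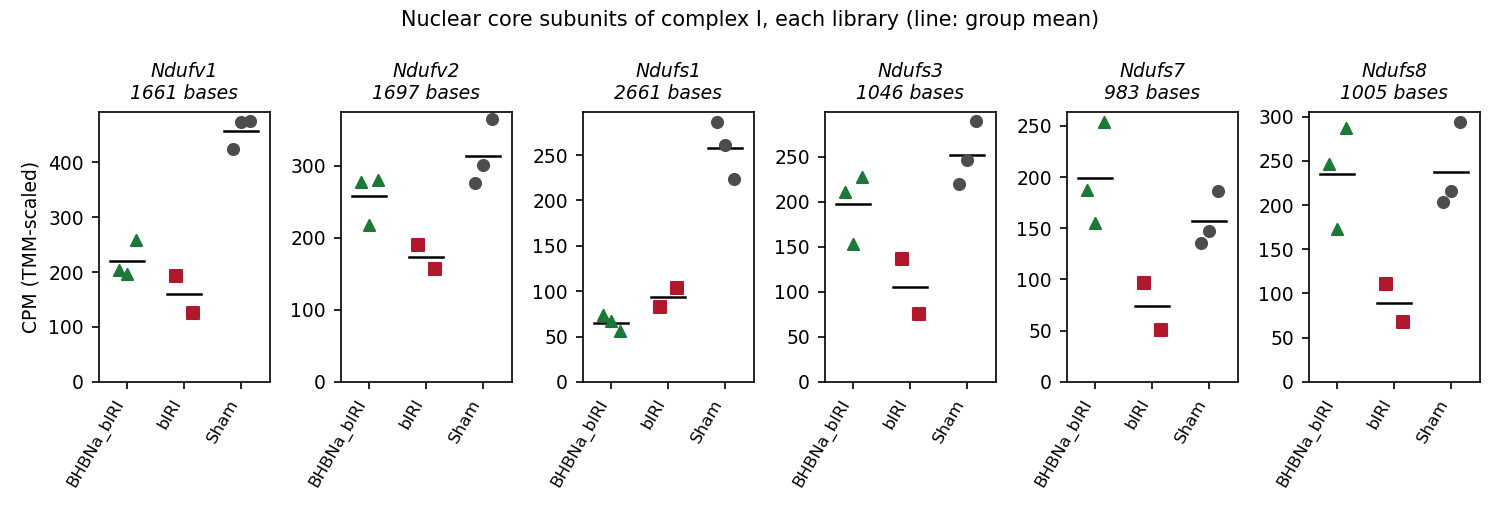
CPM of 6 nuclear core subunits in each library, with BHBNa_bIRI (triangles), bIRI (squares) and Sham (circles) on the x axis and a line at each group mean. Every bIRI point lies below every Sham point in all 6 panels, and Ndufs1 is lowest in BHBNa_bIRI, at 55.8 to 73.2 CPM.

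Of the accessory subunits, 11 of 29 fell and 0 rose in bIRI against Sham, with a median log2 fold change of -0.79. Counted over the 45 members, 23 fell, 0 rose and 22 did not pass, while 32 were lower and 1 higher at an unadjusted p under 0.05. Over all genes tested, edgeR called 16.2% lower at an adjusted p under 0.05. No share of all genes at an unadjusted p is given here to set beside the 32. DESeq2 called 27 members lower and 0 higher, where it called 19.0% of all genes tested lower and 21.1% higher. The groups did not overlap, with bIRI lower, in 38 of 45 members, against 27.2% of all genes tested. Without Sham replicate 3, 12 of the 45 fell, where 12.4% of all genes tested were lower. Of the 23 calls, 11 held whichever library was left out, and these included 4 core subunits, Ndufs1, Ndufs3, Ndufs8 and Ndufv1.

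In bIRI against Sham, 2 of 7 accessory subunits of the N module fell and 0 of 1 of the Q module. In the membrane arm, 1 of 4 fell around ND1, 3 of 5 around ND2, 3 of 5 around ND4 and 1 of 5 around ND5. Of all genes tested, 16.2% were lower. Ndufa9, which binds NADPH where the arms meet (ENSMUSG00000000399, chromosome 6, 126821721 to 126849136), had 129, 105 and 125 CPM in BHBNa_bIRI, 107 and 71.8 CPM in bIRI, and 226, 238 and 246 CPM in Sham. Both injured groups lay below Sham. Ndufa9 fell by 0.98 (SE 0.19, edgeR adjusted p 0.00281) in BHBNa_bIRI and by 1.40 (SE 0.22, adjusted p 0.00139) in bIRI. Ndufa10, a nucleoside kinase relative in the membrane arm, had 219, 179 and 267 CPM in BHBNa_bIRI, 166 and 158 CPM in bIRI, and 296, 332 and 379.9 CPM in Sham. It fell in both injured groups against Sham. Ndufb5, of the ND4 part, had 133, 100.3 and 146 CPM in BHBNa_bIRI, 79.7 and 43.5 CPM in bIRI, and 152, 151 and 186 CPM in Sham. It fell by 1.41 (SE 0.29, adjusted p 0.00521) in bIRI against Sham and rose by 1.03 (SE 0.28, adjusted p 0.0423) in BHBNa_bIRI against bIRI.

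Ndufb8, a membrane arm subunit of the ND5 part, had 108, 90.3 and 131 CPM in BHBNa_bIRI, 93.8 and 129 CPM in bIRI, and 149, 154 and 177 CPM in Sham. The injured groups overlapped, and the fall of 0.55 in BHBNa_bIRI against Sham passed the test (SE 0.20, edgeR adjusted p 0.0467). The accessory subunits that fell in bIRI also included Ndufab1, the mitochondrial acyl carrier protein, and Ndufa6, an LYR protein that binds it, by 0.79 and 0.81. With length and GC trends taken out, Ndufa6 was at -0.37 (SE 0.23, edgeR adjusted p 0.233), and neither was called without Sham replicate 3. The smallest differences from Sham were those of Ndufa3 and Ndufb3, at 0.13 and -0.07.

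**Figure D2:**
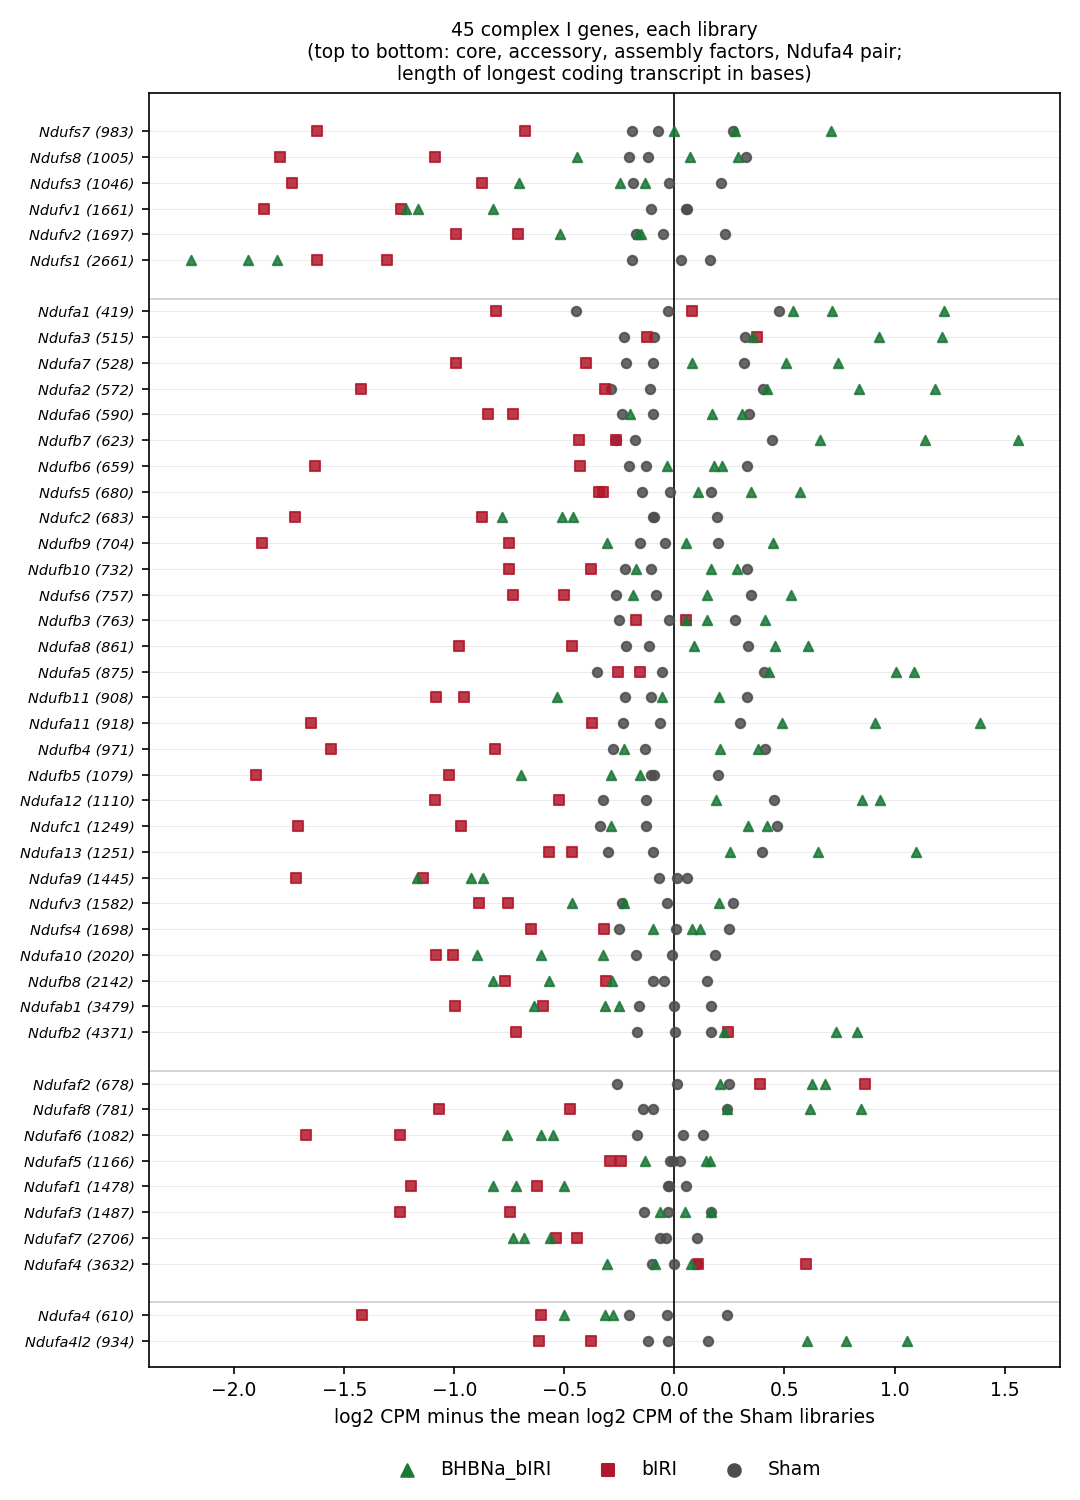
Each library's log2 CPM minus the mean of the Sham libraries (x axis) for the 45 members (rows, with transcript length), as triangles for BHBNa_bIRI, squares for bIRI and circles for Sham. The squares lie left of every circle in 38 rows, and the triangles lie left of every circle in 12 rows and right of every circle in 8.

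In BHBNa_bIRI against bIRI, 15 of 29 accessory subunits rose and 0 fell, with a median log2 fold change of 0.92. Over the 45 members, 21 rose, 0 fell and 24 did not pass, and at an unadjusted p under 0.05, 32 were higher and 2 lower. The median over members was 0.81, against -0.05 for all genes tested. Over all genes tested, edgeR called 4.88% higher and 8.65% lower at an adjusted p under 0.05, which is not the threshold of the 32 and 2. DESeq2 called 28 members higher and 0 lower, where it called 1969 of 17967 genes tested higher and 2472 lower. By module, edgeR called higher 4 of 7 accessory subunits of the N module and 1 of 1 of the Q module. In the membrane arm it called 2 of 4 around ND1, 2 of 5 around ND2, 3 of 5 around ND4 and 2 of 5 around ND5. These lists are small, and with length and GC trends taken out 0 of the 29 accessory subunits were called. That setting called 0.0111% of all genes tested.

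Ndufa11, a membrane arm subunit (ENSMUSG00000002379, chromosome 17, 56717767 to 56722141), had 98.4, 73.3 and 137 CPM in BHBNa_bIRI, 40.3 and 16.7 CPM in bIRI, and 44.5, 50 and 64.2 CPM in Sham. All BHBNa_bIRI libraries were above all others, and the bIRI libraries were lowest and differed from each other more than 2-fold. The rise against bIRI was 3.61-fold, 1.85 on the log2 scale (SE 0.40, edgeR adjusted p 0.0294), and that against Sham was 0.96 (SE 0.33, adjusted p 0.0415). Ndufa2, a thioredoxin-fold subunit of the N module, had 224, 168 and 285 CPM in BHBNa_bIRI, 101 and 46.8 CPM in bIRI, and 103, 116 and 166 CPM in Sham. It rose by 1.61 against bIRI (SE 0.37, adjusted p 0.0325). Against Sham its log2 fold change was 0.82 (SE 0.32, adjusted p 0.0614).

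Ndufb7, on the intermembrane face of the membrane arm (ENSMUSG00000033938, chromosome 8, 83566671 to 83571626), had 249, 179 and 334 CPM in BHBNa_bIRI, 94.1 and 83.8 CPM in bIRI, and 94.3, 99.9 and 154 CPM in Sham. Both bIRI libraries lay below every Sham library, but the fall did not pass the test (-0.38, SE 0.30, edgeR adjusted p 0.349). The BHBNa_bIRI libraries of Ndufb7 were above all others. It rose by 1.51 (SE 0.31, adjusted p 0.0288) against bIRI and by 1.13 (SE 0.27, adjusted p 0.0081) against Sham. Ndufa12, which takes the place of the factor Ndufaf2 late in assembly, had 159.9, 101 and 169 CPM in BHBNa_bIRI, 61.6 and 41.7 CPM in bIRI, and 81.1, 70.8 and 121 CPM in Sham. Its BHBNa_bIRI libraries overlapped with Sham and lay above bIRI, by 1.47 (SE 0.32, adjusted p 0.03). Ndufc1, a small membrane subunit, had 91.7, 59.6 and 97.4 CPM in BHBNa_bIRI, 37.1 and 22.2 CPM in bIRI, and 57.5, 66.7 and 101 CPM in Sham. It fell by 1.34 in bIRI against Sham (SE 0.33, adjusted p 0.0128) and rose by 1.48 with BHB (SE 0.33, adjusted p 0.0308).

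These rises rested on few libraries. Of 45 members, 0 were called higher without Sham replicate 1, Sham replicate 2, BHBNa_bIRI replicate 1 or BHBNa_bIRI replicate 3, and 4 without bIRI replicate 3, where 1.38% of all genes tested were called higher. Without bIRI replicate 1, 31 were called higher and 2, Ndufs1 and Ndufaf4, lower, where 21.4% of all genes tested were higher and 21.4% lower. Where 0 members were called, edgeR called 0 or 1 of all genes tested. At an unadjusted p under 0.05, 25 to 34 members were higher whichever library was left out. With only the BHBNa_bIRI and bIRI libraries in the fit, 0 were called and 27 were higher at an unadjusted p under 0.05. The 4 members called without bIRI replicate 3 were Ndufa4l2, Ndufaf3, Ndufaf8 and Ndufb2, and the log2 fold changes of Ndufaf3 and Ndufaf8 were then 0.80 (SE 0.20) and 1.06 (SE 0.26).

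Against Sham, BHBNa_bIRI kidneys had 5 members higher and 8 lower, and 32 did not pass. Over all genes tested, 43.6% were called, 21.3% higher and 22.2% lower. Ndufb7, Ndufa11, Ndufa3, Ndufa5 and Ndufa4l2 rose. The core subunits Ndufs1 and Ndufv1, the accessory subunits Ndufa9, Ndufa10 and Ndufb8, and the assembly factors Ndufaf1, Ndufaf6 and Ndufaf7 fell. None of the 6 core subunits rose. The groups did not overlap in 8 members with BHBNa_bIRI higher and in 12 with it lower, against 32.6% and 32.2% of all genes tested. Of the 13 calls, 5 held whichever library was left out, those of Ndufa9, Ndufaf7, Ndufb7, Ndufs1 and Ndufv1. Without Sham replicate 1, and likewise without Sham replicate 2, 6 members were called, where 30.2% and 30.5% of all genes tested were called. Without BHBNa_bIRI replicate 1 there were 8 calls among members, where 32.9% of all genes tested were called. Without bIRI replicate 1 or without bIRI replicate 3 there were 23, where 52.5% and 55.4% of all genes tested were called.

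The distance between core and accessory subunits changed with the group. The mean log2 CPM of the core minus that of the accessory subunits was 0.50, 0.57 and 0.40 in BHBNa_bIRI, 0.82 and 0.59 in bIRI, and 1.35, 1.30 and 1.098 in Sham. The 3 groups did not overlap, and the gap was smallest in BHBNa_bIRI. The core list itself averaged 7.48 ± 0.22 in BHBNa_bIRI (SD, n = 3), 7.01 and 6.50 in bIRI, and 8.04 ± 0.14 in Sham (SD, n = 3). The accessory list averaged 6.99 ± 0.30 in BHBNa_bIRI (SD, n = 3), 6.19 and 5.91 in bIRI, and 6.80 ± 0.27 in Sham (SD, n = 3). BHBNa_bIRI was thus between bIRI and Sham for the core list, and overlapped with Sham for the accessory list. Of the core transcripts, 0 of 6 were under 700 bases, and of the accessory ones 9 of 29, so the lists differ in length as well. With length and GC trends taken out, the median log2 fold changes in BHBNa_bIRI against bIRI were 0.34 for core and 0.26 for accessory subunits. In bIRI against Sham they were -1.01 and -0.45. The part of length in the smaller gap of BHBNa_bIRI was not tested.

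**Figure D3:**
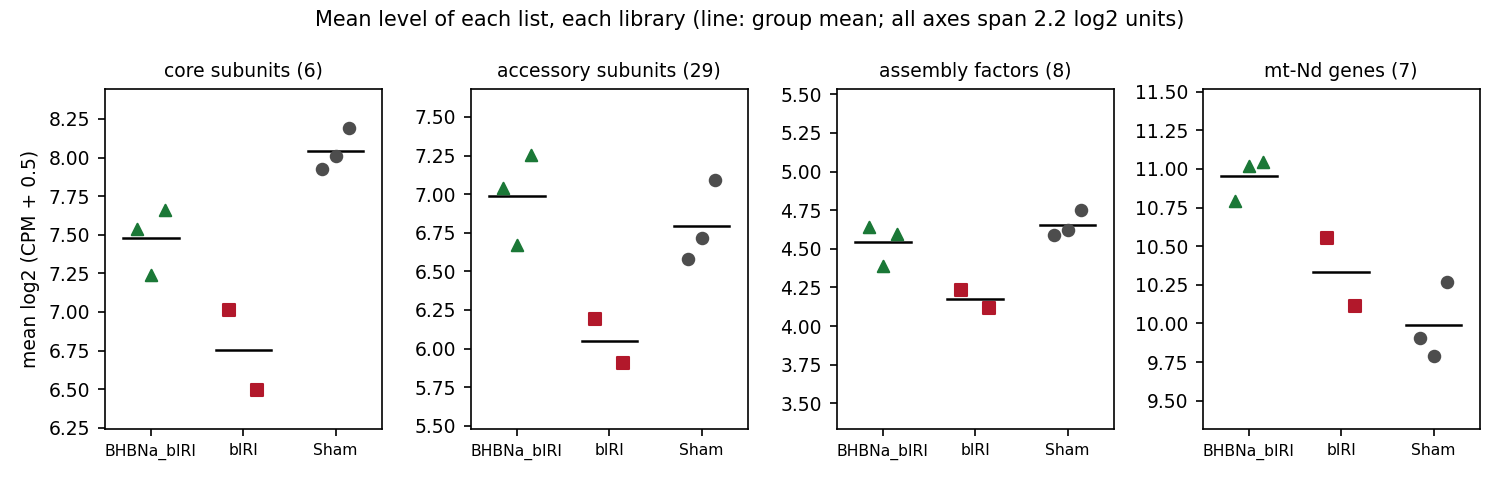
Mean log2 (CPM + 0.5) of 4 lists in each library, with BHBNa_bIRI, bIRI and Sham on the x axis, a line at each group mean and axes of equal span. The core subunits are highest in Sham at 7.92 to 8.19, while the mt-Nd genes are highest in BHBNa_bIRI at 10.79 to 11.05.

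Length is that of the longest protein-coding transcript. In BHBNa_bIRI against bIRI, 5 of 11 members under 700 bases rose, 15 of 20 from 700 to under 1400 bases, and 1 of 14 at 1400 bases and over, namely Ndufaf3. Of all genes tested in these classes, 11%, 12.8% and 3.04% were higher. The median log2 fold changes of these classes were 0.90, 1.16 and 0.44. All genes tested of the same lengths had medians of 0.64, 0.53 and -0.15. Set against length, the fold changes of the 45 members had a Spearman's rho of -0.446, and those of 17928 genes one of -0.393. With the median length of a gene's coding transcripts in place of the longest, rho was -0.248 over members and -0.334 over genes. With GC content rho was 0.615 over members and 0.361 over genes. Genes are not independent replicates and share the same 5 libraries, so these values are descriptions.

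In bIRI against Sham, 3 of 11, 10 of 20 and 10 of 14 members fell in order of length, with medians of -0.69, -0.86 and -0.84. All genes of these lengths had medians of -0.01, -0.11 and 0.13, and 8.79%, 17.0% and 16.6% of them were lower. Core and accessory subunits can be set side by side within a class, though the difference was not tested. At 1400 bases and over, 3 of 3 core and 4 of 7 accessory subunits fell, with medians of -1.46 and -0.79, and from 700 to under 1400 bases 3 of 3 and 5 of 13 fell, with medians of -1.25 and -0.82. In BHBNa_bIRI against bIRI the core subunits of the longest class had a median of 0.46 and the accessory ones 0.45, and 0 of either were called. From 700 to under 1400 bases, 2 of 3 core and 10 of 13 accessory subunits rose there, with medians of 1.40 and 1.1002. Of all genes tested of that length, 12.8% were higher.

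The length trend was a property of libraries as well as of groups. Over 396 genes under 700 bases with a mean log2 CPM above 1, the median difference from the Sham mean was 0.73, 0.40 and 0.81 in BHBNa_bIRI, 0.16 in bIRI replicate 1 and -0.57 in bIRI replicate 3, and -0.18, -0.08 and 0.25 in Sham. The bIRI libraries thus lay on opposite sides of 0. For members of that class, bIRI replicate 3 minus bIRI replicate 1 had a median of -0.59, and for members of 1400 bases and over of 0.0095.

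**Figure D4:**
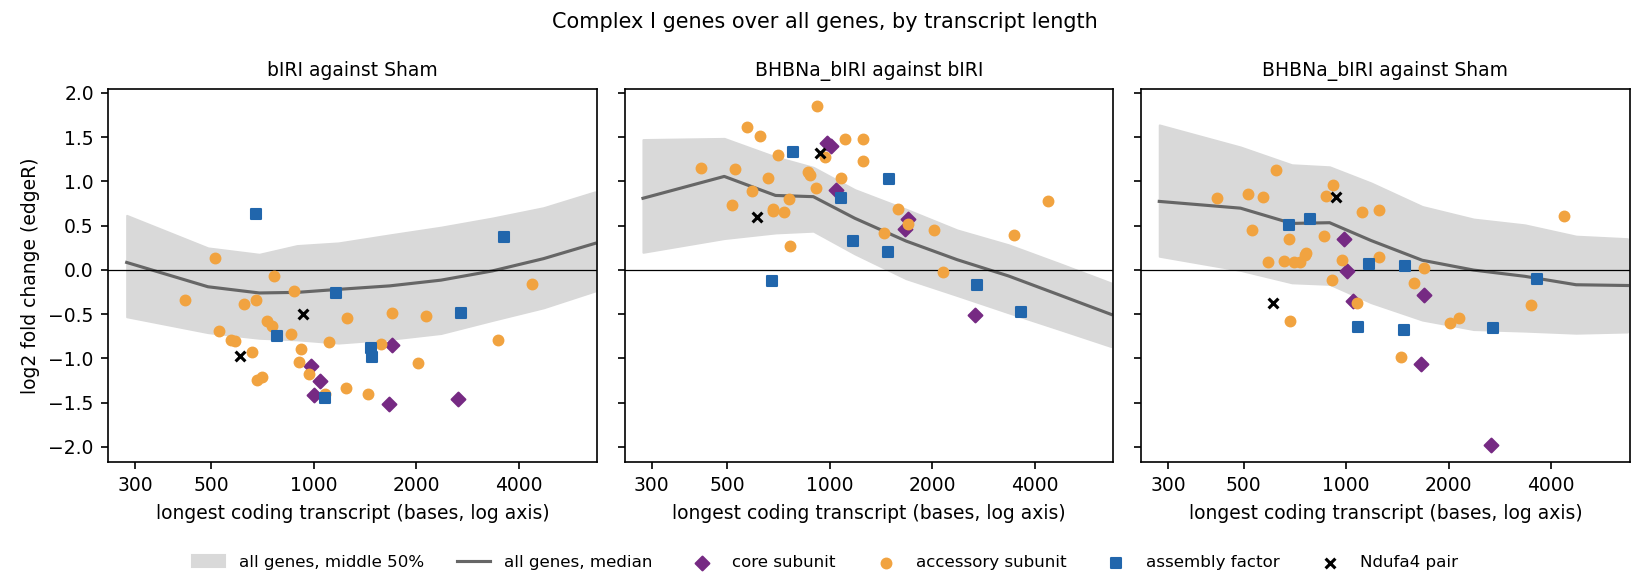
Log2 fold change of the 45 members against transcript length (log axis) in the 3 comparisons, over the median (line) and middle 50% (grey) of all genes with a mean log2 CPM above 1. In BHBNa_bIRI against bIRI the median line falls with length, and Ndufs1 lies at -0.51. From the short to the long class the members' medians are 0.90, 1.16 and 0.44. Those of all genes tested are 0.64, 0.53 and -0.15. In bIRI against Sham the core subunits lie between -1.52 and -0.85.

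When each library's smooth trend in length and GC content was taken out of the counts, members were called lower in bIRI against Sham and none was called higher in BHBNa_bIRI against bIRI. In bIRI against Sham, 24 members fell and 1 rose, Ndufaf2, where 36.6% of all genes tested were called and 16.3% were lower. The 6 core subunits fell, with a median of -1.01. In BHBNa_bIRI against bIRI 0 of 45 members were called, 15 were higher and 1 lower at an unadjusted p under 0.05, and the median was 0.23. Of all 17967 genes tested, 2 were called, both lower, which is 0.0111%. Ndufa11 was then higher by 0.96 (SE 0.22, edgeR adjusted p 0.0565) and Ndufs8 by 0.61 (SE 0.16, adjusted p 0.0712), while Ndufb7 was at 0.26 (SE 0.20, adjusted p 0.431). In BHBNa_bIRI against Sham, 16 members fell and 1, Ndufb2, rose, where 22.2% of all genes tested were lower and 23.8% higher, and 4 of 6 core subunits fell. The 5 members that had risen against Sham were then not called, and Ndufb7 was at 0.22 (SE 0.17, adjusted p 0.319). The source of this trend was not tested.

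**Figure D5:**
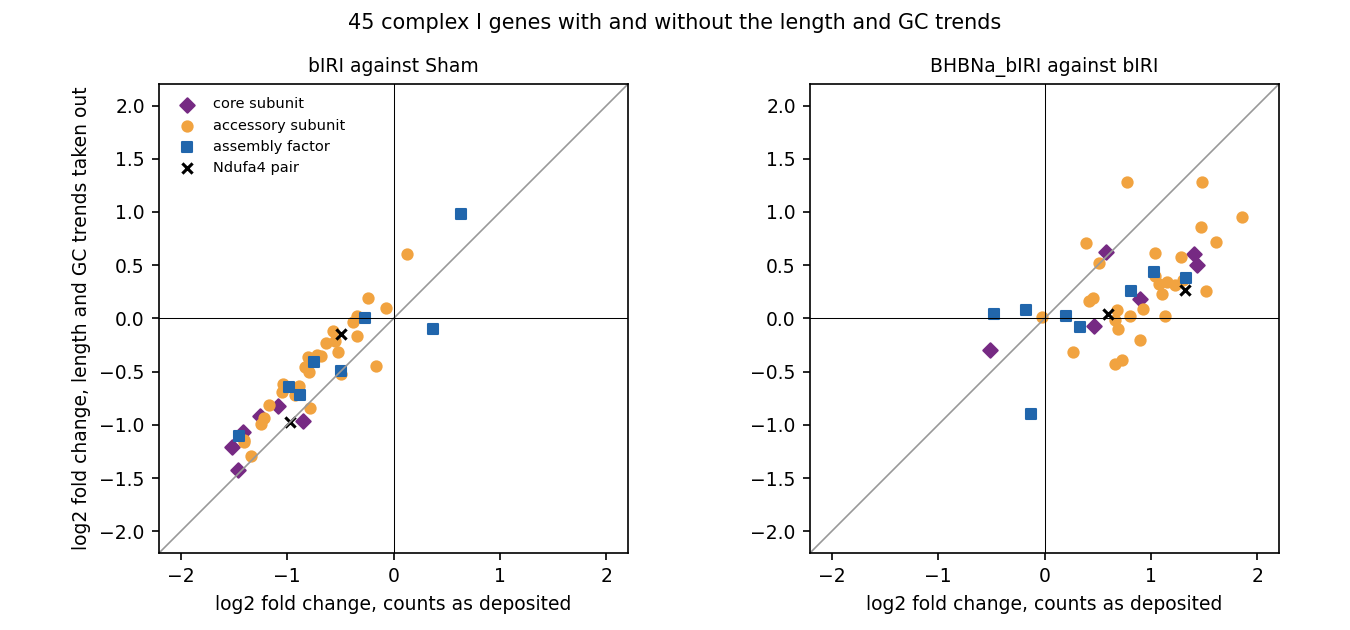
Log2 fold change of each member with length and GC trends taken out (y axis) against that from the counts as deposited (x axis), for bIRI against Sham and for BHBNa_bIRI against bIRI, with the line of equality. In the first panel most points stay below 0 on both axes, with Ndufs1 at -1.42 and -1.46. In the second most points drop toward 0, with a median of 0.23 against 0.81.

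Assembly factors fell in 5 of 8 in bIRI against Sham, and 3 of 8 rose in BHBNa_bIRI against bIRI. Over all genes tested, 16.2% were lower in the first comparison and 4.88% higher in the second. Ndufaf1, a member of the assembly complex that builds the membrane arm with Acad9 and Ecsit, had 26.2, 21 and 22.6 CPM in BHBNa_bIRI, 24.2 and 16.2 CPM in bIRI, and 38.6, 36.4 and 36.5 CPM in Sham. The injured groups overlapped and lay below Sham. The log2 fold changes against Sham were -0.88 (SE 0.21, edgeR adjusted p 0.00975) in bIRI and -0.68 (SE 0.18, adjusted p 0.0137) in BHBNa_bIRI. Ndufaf6, which acts early in assembly, had 17.2, 15.4 and 17.9 CPM in BHBNa_bIRI, 11 and 8.2 CPM in bIRI, and 23.3, 26.9 and 28.7 CPM in Sham. Its groups did not overlap, with BHBNa_bIRI in the middle. It fell by 1.45 in bIRI against Sham (SE 0.20, adjusted p 0.000848) and by 0.64 in BHBNa_bIRI against Sham (SE 0.17, adjusted p 0.0149), and rose by 0.81 in BHBNa_bIRI against bIRI (SE 0.20, adjusted p 0.0355).

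Ndufaf3, which with Ndufaf4 binds the Q module early in assembly, had 28.8, 26.7 and 31.2 CPM in BHBNa_bIRI, 16.6 and 11.7 CPM in bIRI, and 25.3, 27.4 and 31.3 CPM in Sham. BHBNa_bIRI overlapped with Sham, and bIRI lay below both. Ndufaf3 fell by 0.98 in bIRI against Sham (SE 0.20, edgeR adjusted p 0.00566) and rose by 1.03 with BHB against bIRI (SE 0.20, adjusted p 0.0277). Its partner Ndufaf4 had 38.2, 34.2 and 29.3 CPM in BHBNa_bIRI, 39.1 and 55 CPM in bIRI, and 36.3, 33.9 and 39 CPM in Sham. Here bIRI was highest, and no comparison passed the test. Ndufaf4 has a transcript of 3632 bases and Ndufaf3 of 1487 bases.

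Ndufaf8, which works with the hydroxylase Ndufaf5 on Ndufs7, had 34.1, 26.2 and 40 CPM in BHBNa_bIRI, 16 and 10.6 CPM in bIRI, and 20.2, 20.8 and 26.3 CPM in Sham. It fell by 0.75 in bIRI against Sham (SE 0.25, edgeR adjusted p 0.0435) and rose by 1.33 in BHBNa_bIRI against bIRI (SE 0.26, adjusted p 0.0275). Ndufaf5 itself had 17.9, 14.7 and 18.1 CPM in BHBNa_bIRI, 13.2 and 13.7 CPM in bIRI, and 16.5, 16.1 and 15.9 CPM in Sham, and was called in no comparison. Ndufaf7, a methyltransferase, had 26.5, 23.5 and 24.4 CPM in BHBNa_bIRI, 27 and 28.9 CPM in bIRI, and 42, 38.2 and 37.5 CPM in Sham. It fell against Sham in both injured groups, by 0.66 in BHBNa_bIRI (SE 0.14, adjusted p 0.00428) and by 0.49 in bIRI (SE 0.16, adjusted p 0.0349). Ndufaf2, the assembly paralogue of Ndufa12, had 15.7, 11.3 and 15.1 CPM in BHBNa_bIRI, 12.8 and 17.8 CPM in bIRI, and 8.18, 9.86 and 11.6 CPM in Sham. Its exons share 65.6% of their bases with another annotated gene, so its counts are uncertain.

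Ndufa4 and Ndufa4l2 carry the name of complex I genes, but Ndufa4 is now counted as a subunit of cytochrome c oxidase and Ndufa4l2 is its hypoxia-inducible paralogue. Ndufa4 had 423, 371 and 434 CPM in BHBNa_bIRI, 346 and 197 CPM in bIRI, and 456, 514 and 622 CPM in Sham. Its groups did not overlap, and it fell by 0.97 in bIRI against Sham (SE 0.27, edgeR adjusted p 0.0227). Ndufa4l2 had 5.55, 6.27 and 7.61 CPM in BHBNa_bIRI, 2.39 and 2.81 CPM in bIRI, and 3.58, 4.06 and 3.36 CPM in Sham. BHBNa_bIRI was the highest group and bIRI the lowest. Ndufa4l2 rose by 1.31 in BHBNa_bIRI against bIRI (SE 0.28, adjusted p 0.0293) and by 0.82 against Sham (SE 0.24, adjusted p 0.0199).

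Per kilobase of transcript, levels in Sham spanned from 869.7 CPM per kb for Ndufa4 to 1.35 CPM per kb for Ndufb2. Among subunits, Ndufb11 was at 329 and Ndufv1 at 275 CPM per kb. The 8 assembly factors lay between 10 (Ndufaf4) and 28.7 CPM per kb (Ndufaf8), below the 6 core subunits, of which Ndufs1 was at 96.7. Divided by the median length of its coding transcripts, Ndufs1 was at 395, the highest of the 6, so its place among them rests on the transcript chosen. Over its longest transcript, Ndufs1 was at 24.5 CPM per kb in BHBNa_bIRI and 35.1 in bIRI. The level of Ndufb2 is divided by a transcript of 4371 bases, much longer than those of its relatives. Besides Ndufaf2, exons were shared with other genes over 39% of bases in Ndufb6, 30% in Ndufa13 and 19.5% in Ndufb9, whose counts are uncertain too. The 27 members with no shared exonic base gave 15 falls in bIRI against Sham, where 16.2% of all genes tested were lower. They gave 13 rises in BHBNa_bIRI against bIRI, where 4.88% of all genes tested were higher.

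Further core subunits are encoded by mitochondrial DNA. Of the 7 mt-Nd genes, edgeR called 4 higher in BHBNa_bIRI against Sham, mt-Nd1, mt-Nd3, mt-Nd4 and mt-Nd4l, where 21.3% of all genes tested were higher. With length and GC trends taken out it called 0 of the 7, with 1 higher and 1 lower at an unadjusted p under 0.05. From the counts as deposited it called 0 in BHBNa_bIRI against bIRI, with 2 higher and 0 lower at an unadjusted p under 0.05, where DESeq2 called 2 higher. In bIRI against Sham it called 0, with 1 higher and 0 lower at an unadjusted p under 0.05, where DESeq2 called 1 higher. The list averaged 10.95 ± 0.14 in mean log2 CPM in BHBNa_bIRI (SD, n = 3), 10.55 and 10.11 in bIRI, and 9.99 ± 0.25 in Sham (SD, n = 3). BHBNa_bIRI lay above both other groups, which overlapped. The proton pump subunit mt-Nd4 had 13996, 16228 and 21413 CPM in BHBNa_bIRI, 11795 and 8831 CPM in bIRI, and 7365, 7183 and 10758 CPM in Sham, with a rise of 1.03 (SE 0.29, edgeR adjusted p 0.0171) in BHBNa_bIRI against Sham. Reads of these genes can also come from nuclear copies, which were not examined.

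Of 10 other assembly factors without an Ndufaf name, 9 were tested, and 6 fell in bIRI against Sham, where 16.2% of all genes tested were lower. Acad9, an acyl-CoA dehydrogenase relative in the assembly complex of Ndufaf1, had 15, 15.8 and 14 CPM in BHBNa_bIRI, 20.1 and 25.1 CPM in bIRI, and 75.1, 73.0 and 59.3 CPM in Sham. Its groups did not overlap and BHBNa_bIRI was lowest, and it fell by 2.21 (SE 0.17, edgeR adjusted p 2.53e-05) in BHBNa_bIRI against Sham and by 1.61 (SE 0.19, adjusted p 0.000351) in bIRI against Sham. Ecsit, of the same assembly complex, had 67.7, 62.0 and 71.5 CPM in BHBNa_bIRI, 42.7 and 31.8 CPM in bIRI, and 78.8, 82.1 and 101 CPM in Sham. It fell by 1.23 in bIRI against Sham (SE 0.20, adjusted p 0.00169) and rose by 0.85 in BHBNa_bIRI against bIRI (SE 0.20, adjusted p 0.0322). Foxred1, Nubpl, Timmdc1 and Tmem70 also fell in bIRI against Sham, and Dmac1 rose in BHBNa_bIRI against bIRI. In BHBNa_bIRI against Sham, 4 of 9 fell, Acad9, Foxred1, Nubpl and Tmem70, where 22.2% of all genes tested were lower.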

How the data were processed

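RNA was poly(A)-selected and sequenced as paired ends, per the labels. Each library's deposited table held raw counts of reads, 1 value for every gene. Per the submitters' processing notes, HISAT2, featureCounts of Subread, DESeq2 and mm10 were used; tool versions, annotation and strand setting are not given in the sources used here. Gene names, types, lengths and GC content came from GENCODE M21 (GRCm38).

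Low counts were removed with filterByExpr, TMM factors were 0.830 to 1.37, and edgeR 4.0.16 in R 4.3.3 was fitted to 8 libraries with 1 mean per group, robust dispersion (biological coefficient of variation 0.296) and 5 residual degrees of freedom. Tests were two-sided, with Benjamini-Hochberg adjustment over 17967 genes. Shares of all genes called are at an adjusted p under 0.05, also where members are counted at an unadjusted p. SE is the log2 fold change over the root of F. CPM used TMM-scaled sizes, with 0.5 CPM added in list means. DESeq2 1.42.0 and other alternatives are compared in the closing section. Length and GC offsets were natural splines with 5 degrees of freedom per library, over genes with mean log2 CPM above 1. The fit was tested on simulated data.

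Members, lists, length classes and tests were chosen with earlier results of these data known. Of the 46 genes with such a symbol, 1 is not reported here; it stayed in the fit over all genes and out of the members' counts. The rule named 25 genes: core subunits, Ndufaf genes, Ndufa4, Ndufa4l2 and the 5 largest called changes per comparison. Others were named after their values were seen. The main fit did not pair libraries by replicate number. Deviations from the group means correlated at -0.351 to 0.162 between same-numbered libraries. With 2 bIRI libraries such deviations mirror each other, so these values cannot settle whether the numbers mark pairs.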

Additional observations from a re-analysis of the deposited data

How the results depend on the processing

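The count of 23 members lower in bIRI against Sham stayed between 19 and 33 under every alternative other than leaving out a library, and was 12 to 30 with 1 library left out. The count of 21 members higher in BHBNa_bIRI against bIRI was 0 with only the 2 groups compared in the fit, 0 with length and GC offsets and 32 with all 9 tables, and 0 to 31 with 1 library left out. The replicate block gave 22, 0 and 10 members called in bIRI against Sham, BHBNa_bIRI against bIRI and BHBNa_bIRI against Sham. It called 25.5%, 0% and 36.5% of all genes tested. The replicate block with length and GC offsets gave 22, 0 and 16 members, and 26.5%, 0% and 39.6% of all genes tested. The count of 13 in BHBNa_bIRI against Sham was 23 with only the 2 groups compared and 6 to 23 with 1 library left out. Offsets without bIRI replicate 3 or 1, chosen after seeing the data, left 1 bIRI library, so only effect sizes are given. In bIRI against Sham the members' median log2 fold changes were -0.66 and -0.43, and those of all genes tested 0.026 and 0.17. In BHBNa_bIRI against bIRI they were 0.34 and 0.14, against 0.040 and -0.090 for all genes tested. In BHBNa_bIRI against Sham they were -0.23 and -0.22, against 0.074 and 0.070. With only the 2 groups compared in the fit, 12.6% of all genes tested were lower in bIRI against Sham. That setting called 59.9% in either direction in BHBNa_bIRI against Sham. With all 9 tables, 22.6% were lower in bIRI against Sham and 15.5% higher in BHBNa_bIRI against bIRI. The causes of these changes were not tested.

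Among called members, signs turned with length and GC offsets for Ndufa6 (-0.20) and Ndufs5 (-0.10), both called higher in BHBNa_bIRI against bIRI from the counts as deposited. Among the 25 genes of the naming rule, signs turned for values that had not passed the test. With length and GC offsets, and then with the replicate block as well, the log2 fold changes in bIRI against Sham were -0.10 and -0.16 for Ndufaf4, and 0.0013 for Ndufaf5 with the offsets alone. In BHBNa_bIRI against bIRI the same fits gave 0.038 and 0.10 for Ndufaf4, -0.082 and -0.051 for Ndufaf5, 0.083 and 0.13 for Ndufaf7, 0.0105 and 0.10 for Ndufb8, and -0.075 and -0.089 for Ndufv1. In BHBNa_bIRI against Sham they gave -0.21 and -0.21 for Ndufaf3, -0.080 and -0.088 for Ndufaf5, -0.025 and -0.027 for Ndufaf8, -0.014 and -0.038 for Ndufc1, and -0.33 and -0.33 for Ndufs7. Ndufb8 in BHBNa_bIRI against bIRI was at 0.011 with scaling without mitochondrially encoded and the most abundant genes, 0.0052 without a low-count filter, 0.0024 with all 9 tables and 0.059 with the replicate block.

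With 1 library left out, lone libraries were taken to vary like the other groups. Signs then turned in BHBNa_bIRI against bIRI for Ndufaf1 (-0.059 to 0.57), Ndufaf2 (-0.29 to 0.13) and Ndufb8 (-0.18 to 0.22), and in BHBNa_bIRI against Sham for Ndufaf3 (-0.025 to 0.13), Ndufc1 (-0.016 to 0.41) and Ndufs8 (-0.18 to 0.17). With RLE size factors or DESeq2, none of the 25 named genes lost a call in any comparison. With classes by the median transcript length of a gene, the medians in BHBNa_bIRI against bIRI were 0.85, 0.92 and 0.33 from short to long. Members had 109 counts or more in every library, and bIRI had 2 libraries.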
